A study of Mus musculus with 4 samples.

Results

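The cells described here were kept barcodes of 4 mouse single-cell libraries that carried RNA of decorin and collagen VI and little RNA of the leukocyte gene Ptprc or of the growth-associated gene Hmga2. A barcode was kept with at least 1000 unique molecular identifiers (UMIs, 1 per captured RNA molecule), at least 200 genes and at most 10% of UMIs from mt- genes. A kept barcode was counted as a fibroblast-like cell with at least 5 UMIs of Dcn, at least 5 UMIs of Col6a1 and Col6a2 together, at most 1 UMI of Ptprc and fewer than 2 UMIs of Hmga2. This rule took 231 of 15752 kept barcodes. Since it reads the same matrices as every value below, the levels of Dcn, Col6a1, Col6a2, Ptprc and Hmga2 among the cells follow from the choice and are given as description.

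The 4 groups are named IgG, Ac, C and aC+C, with 1 library each, names that the labels leave unexplained, without doses, times or numbers of animals. The labels disagree on the cells. Sample titles speak of immune cells from tumors and the series title of CD8+ T cells, while the source, the cell type and the protocol, which are the same for all 4 samples, describe goblet cells of distal colon and small intestine from RedMUC298trTg mice, sorted by their mCherry signal. The labels give an age of 6 to 8 weeks, under the genotype. With 1 library per group there is no replicate error, so no test between groups is given. All intervals below are exact 95% intervals for counting error only (Clopper-Pearson for shares, Poisson for levels, conditional binomial for ratios), and they are too narrow for a group because molecules of 1 cell are not independent.

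Fibroblasts are the connective tissue cells that make and remodel the extracellular matrix. They secrete fibrillar collagens, the small leucine-rich proteoglycans that bind collagen fibrils (decorin, lumican, osteoglycin, asporin), collagen VI, and the fibrillin and fibulin proteins of microfibrils. In tumors, fibroblasts of the stroma and mesenchymal tumor cells can share much of this program, so a matrix gene alone does not define a fibroblast. Adventitial fibroblasts, a tissue-resident kind found around vessels, are known for Pi16 and Dpt.

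Listed as IgG, Ac, C and aC+C, the libraries totalled 61519049, 65973242, 75665201 and 75067320 UMIs, and 3436, 4027, 4208 and 4081 of their barcodes were kept, with a median of 10493 to 11594.5 UMIs. Between 2 and 7 kept barcodes were shared by any pair of libraries, and none of them was a fibroblast-like cell in both libraries of the pair. Free RNA, read from barcodes of 1 to 50 UMIs, made up 3.58% to 4.99% of all UMIs.

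Fibroblast-like cells were rare in each library. IgG had 33 of them, 0.960% (0.662 to 1.35) of its kept barcodes, Ac had 58, 1.44% (1.10 to 1.86), C had 77, 1.83% (1.45 to 2.28), and aC+C had 63, 1.54% (1.19 to 1.97). IgG had the lowest share, and its interval overlapped those of Ac and aC+C but not that of C. The intervals of Ac, C and aC+C overlapped each other. The cells were deeply sampled, with median UMIs of 28907, 30756, 28225 and 30991 in IgG, Ac, C and aC+C. They were compared with 945 kept cells that had at least 2 UMIs of Hmga2 and at least 2 of Tm4sf1, a surface protein found on many tumor cells, called Hmga2 Tm4sf1 cells below. Their shares of kept barcodes were, from IgG to aC+C, 3.64%, 4.47%, 6.15% and 9.34%.

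Checked against fibroblast genes beyond the markers Dcn, Col6a1, Col6a2, Islr, Gas1 and Apod, the 231 cells were 2 unlike sets, and the label held better for the smaller one. Those 6 markers did not separate the sets, with a median ratio of 1.01 of the smaller over the larger. A set of 12 cells carried 36 to 271 UMIs of Pi16, Dpt, Col14a1 and Gpx3 together, and the other 219 carried 0 to 3, with 203 of them at 0. This split was made after the values were seen. Here these 12 are called the Pi16-set cells, and their number was 6 of 33 fibroblast-like cells in IgG (18.2%, interval 6.98 to 35.5), 1 of 58 in Ac (1.72%, 0.0436 to 9.24), 2 of 77 in C (2.60%, 0.316 to 9.07) and 3 of 63 in aC+C (4.76%, 0.993 to 13.3). IgG thus had the most of them from the fewest cells. Of all kept barcodes, 21 had at least 10 UMIs of the 4 genes (IgG 10, Ac 1, C 4, aC+C 6), and of the 9 that were not chosen by the rule, 7 had more than 1 UMI of Ptprc.

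**Figure D1:**
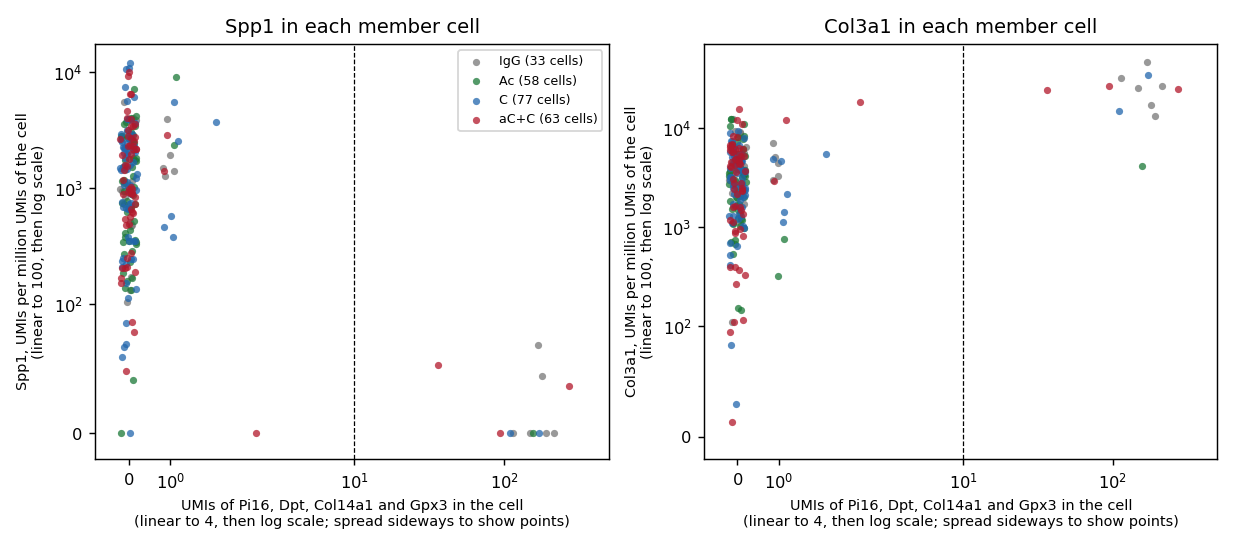
Each point is 1 of the 231 fibroblast-like cells, coloured by library. The horizontal axis gives its summed UMIs of Pi16, Dpt, Col14a1 and Gpx3 (linear up to 4, then logarithmic, dashed line at 10), and the vertical axis its level of Spp1 (left) or Col3a1 (right) in UMIs per 1000000 UMIs of the cell (linear up to 100, then logarithmic). The 12 cells to the right of the line, 36 to 271 UMIs, have almost no Spp1 and mostly high Col3a1, and no cell lies between 3 and 36.

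The Pi16-set cells had the matrix program of connective tissue fibroblasts. Levels are given as CPM, UMIs of the gene per 1000000 UMIs of the cells. Col3a1, which encodes the type III collagen chain, was at 24038 CPM in the 12 cells and 3594 in the other 219. The type I collagen chains Col1a1 and Col1a2 were at 11390 and 13217 CPM in the 12 and at 1298 and 786 in the 219. The fibrillin gene Fbn1 was at 1971 against 97.9, and Sparc, a collagen-binding matricellular protein, at 8900 against 1154. Several fibroblast genes were at or near 0 in the 219 cells. Postn (periostin) was at 1281 CPM in the 12 and 1.60 in the 219, Lox, which crosslinks collagen, at 927 and 0.145, Igfbp7 at 981 and 0.290, Fbln2 at 1102 and 0.145, and the chemokine gene Cxcl12 at 1124 and 0. Complement C3 was at 5952 and 34.2, and Thy1, a surface marker of many fibroblasts, at 282 and 0.871. Among 7023 measured genes, 99 (1.41%) reached 10 times or more in the 12 and 54 (0.769%) 10 times or more in the 219, which is a description because genes of the same cells made the split. Each of the 12 cells had at least 64 UMIs of Dcn, and their Col3a1 ran from 4139 CPM, in the cell of Ac, to 45752 CPM in a cell of IgG.

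The other 219 cells were much closer to the Hmga2 Tm4sf1 cells. Spp1, encoding the secreted phosphoprotein osteopontin, had UMIs in 216 of the 219 and stood at 1851 CPM, against 1759 CPM in Hmga2 Tm4sf1 cells and 17.9 CPM in the 12. The position genes Pitx1 and Hoxa10, transcription factors of the hindlimb and posterior body, were at 51.4 and 38.0 CPM in the 219, 50.5 and 29.4 in Hmga2 Tm4sf1 cells, and 0 in the 12. Hoxc10 followed this order with 110, 85.3 and 4.48 CPM. In reverse, Hoxb4 and Hoxb7, transcription factors of a more anterior domain, were at 13.4 CPM each in the 12 and at 0 in the 219. The 12 cells held 223270 UMIs in all, so 13.4 CPM is only a few molecules and the contrast in these genes is weak. Inhba, a subunit of activin, was at 232 CPM in the 219, 166 in Hmga2 Tm4sf1 cells and 0 in the 12. Xist, the RNA of the inactive X chromosome, had UMIs in 11 of the 12 cells (430 CPM) but in 15 of the 219 (4.79 CPM), while Hmga2 Tm4sf1 cells were at 54.7 and leukocytes, kept cells with at least 5 UMIs of Ptprc, at 901. Between the 219 and the pooled Hmga2 Tm4sf1 cells, 8 of 11265 genes (0.071%) reached 10 times or more in the 219 and 92 (0.817%) in the Hmga2 Tm4sf1 cells. The 219 were not without fibroblast receptors: Pdgfra was at 160 CPM against 37.5 in Hmga2 Tm4sf1 cells and 435 in the 12, and Pdgfrb at 145, 48.9 and 112. For these 219 the data go only partly with the fibroblast label, and they are called the Dcn-positive Spp1 cells. Among them, 1 cell of aC+C, stood apart with 3 UMIs of the Pi16 set, none of Spp1, 17918 CPM of Col3a1 and 151 UMIs of the myeloid genes C1qa, C1qb, C1qc, Lyz2 and Cd74.

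The cut at 2 UMIs of Hmga2 did not fall at a gap, as many cells lay on both sides of it. Among 885 kept cells that met the other criteria with any Hmga2, 121 had 0 UMIs, 110 had 1, 55 had 2, 61 had 3 and 538 had 4 or more. Dcn was lower along this order, from 4328 CPM through 3151, 3076 and 2944 to 1360, and Col1a1 from 1937 through 1305, 1165 and 929 to 436. Of the 12 Pi16-set cells only 1 had a UMI of Hmga2. The levels at 0 UMIs therefore include the others, with their high Col1a1 (10561 CPM as a mean over the 12 cells). The order was not computed without them, so the first step cannot be read as a fall along this order. Median UMIs per cell went the other way, from 28693 through 32367, 35005 and 37706 to 62037, so a low Hmga2 count goes with a shallower cell. Of the 231 cells, 206 had at least 2 UMIs of Tm4sf1, and 893 of the 945 Hmga2 Tm4sf1 cells had at least 5 UMIs of Dcn. At the cuts on Dcn and collagen VI few cells lay near the line: 1 cell had 4 UMIs of Dcn and 2 had 5, and 3 cells had 4 UMIs of collagen VI and 2 had 5. For Ptprc, 205 cells had 0 UMIs, 26 had 1, and just outside 5 had 2 and 3 had 3.

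Marker lists of most other cell types had low sums with some genes at 0, while summed levels of the leukocyte, macrophage and mesenchymal tumor-like lists were higher. Genes without a UMI in the 231 cells were 2 of 10 for pericytes and smooth muscle (Rgs5, Myh11) and 4 of 10 for endothelium (Kdr, Tie1, Emcn, Cldn5). They were 5 of 10 for epithelium and keratinocytes (among them Krt5, Krt18, Krt19, Muc2) and 4 of 6 for adipocytes (among them Adipoq, Plin1). Upk3b, Lrrn4 and Wt1 of the mesothelial list and Sox10 of the Schwann cell list were also at 0. The other genes of these lists had UMIs. In the Pi16-set cells the pericyte, endothelial and adipocyte lists summed to 112, 94.1 and 197 CPM. The summed level of the whole pericyte list ran from 11 to 27 CPM over the libraries, that of the endothelial list from 5 to 22 and that of the epithelial list from 27 to 44. Msln carried the mesothelial sum of 47 to 73 CPM, and Sox9 the cartilage and bone sum of 128 to 207 CPM, in which Acan, Col2a1 and Sp7 were at 0. The macrophage list summed to 107, 1009, 988 and 252 CPM in IgG, Ac, C and aC+C, against 11696 in leukocytes. The leukocyte list summed to 386, 440, 566 and 418 CPM against 7461 in leukocytes, and Arhgdib alone gave 351, 364, 407 and 365 of it. The mesenchymal tumor-like list, which holds Hmga2 and Tm4sf1 of the rules, summed to 538, 700, 548 and 799 CPM against 1916 in Hmga2 Tm4sf1 cells. The macrophage RNA sat in few cells: 6 cells (Ac 1, C 4, aC+C 1) had at least 10 UMIs of C1qa, C1qb, C1qc, Lyz2 and Cd74 together. The list of myofibroblast and contractile genes summed to 2098, 2020, 1979 and 2200 CPM, against 2653 in Hmga2 Tm4sf1 cells and 1037 in leukocytes, and Cald1, an actin-binding protein, was its most abundant gene at 605 to 621 CPM. Its smooth muscle genes Acta2 and Tagln reached at most 1.38 and 2.36 CPM in any library. The most abundant genes were S100a6, at 10358 to 12801 CPM, and Tpt1, followed by Malat1, Eef1a1, Lgals1 and Fth1, with Col3a1, Dcn and Vim also in the first 15.

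The genes used as markers were led by Dcn. Its level was 5027 (interval 4885 to 5171), 3360, 3848 and 3339 CPM in the order IgG, Ac, C and aC+C, and without the Pi16-set cells 4757, 3313, 3693 and 3186. Islr and Apod, which the rule did not count, were at 373 to 623 CPM and at 487 to 924 CPM and had their highest level in IgG too, whereas Gas1, a growth arrest protein of the cell surface, was highest in C at 597 CPM and lowest in aC+C at 425. As means over cells, Islr was at 377 CPM in the 12 and 516 in the 219, and Gas1 at 417 and 532. Col6a1 was at 1273 and 1448 and Col6a2 at 834 and 972, while Dcn (8685 and 3825) and Apod (927 and 683) went the other way. All 6 were at least 2 times as high as in Hmga2 Tm4sf1 cells in each library, with and without the 12.

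Fibrillar collagens were highest in IgG, and part of that came with the Pi16-set cells. In the order IgG, Ac, C and aC+C, Col3a1 stood at 7872 (7695 to 8052), 3376 (3293 to 3460), 3517 (3439 to 3597) and 4090 CPM (4004 to 4177). Without the 12 cells the levels were 5264, 3371, 3179 and 3553 CPM, so IgG was still the highest but by less. Single cells overlapped widely: in the Dcn-positive Spp1 cells the median cells had 4496, 2858, 3088 and 3620 CPM, and over all 231 the ranges were 110 to 45752, 145 to 12172, 29.7 to 33524 and 13.6 to 26461 CPM. Col1a1 was at 3408, 1266, 1198 and 1542 CPM, and without the 12 at 1915, 1246, 1129 and 1272. Col1a2 went from 2928, 772, 845 and 1083 CPM to 1010, 742, 754 and 770, which put the ratios to IgG at 0.73, 0.75 and 0.76. Summed over the fibrillar collagen list, IgG had 15259 CPM against 5963, 6137 and 7371, and without the 12 cells 8926 against 5903, 5617 and 6179. In Hmga2 Tm4sf1 cells this sum was highest in IgG too, at 2535 CPM against 1806, 1815 and 1409.

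**Figure D2:**
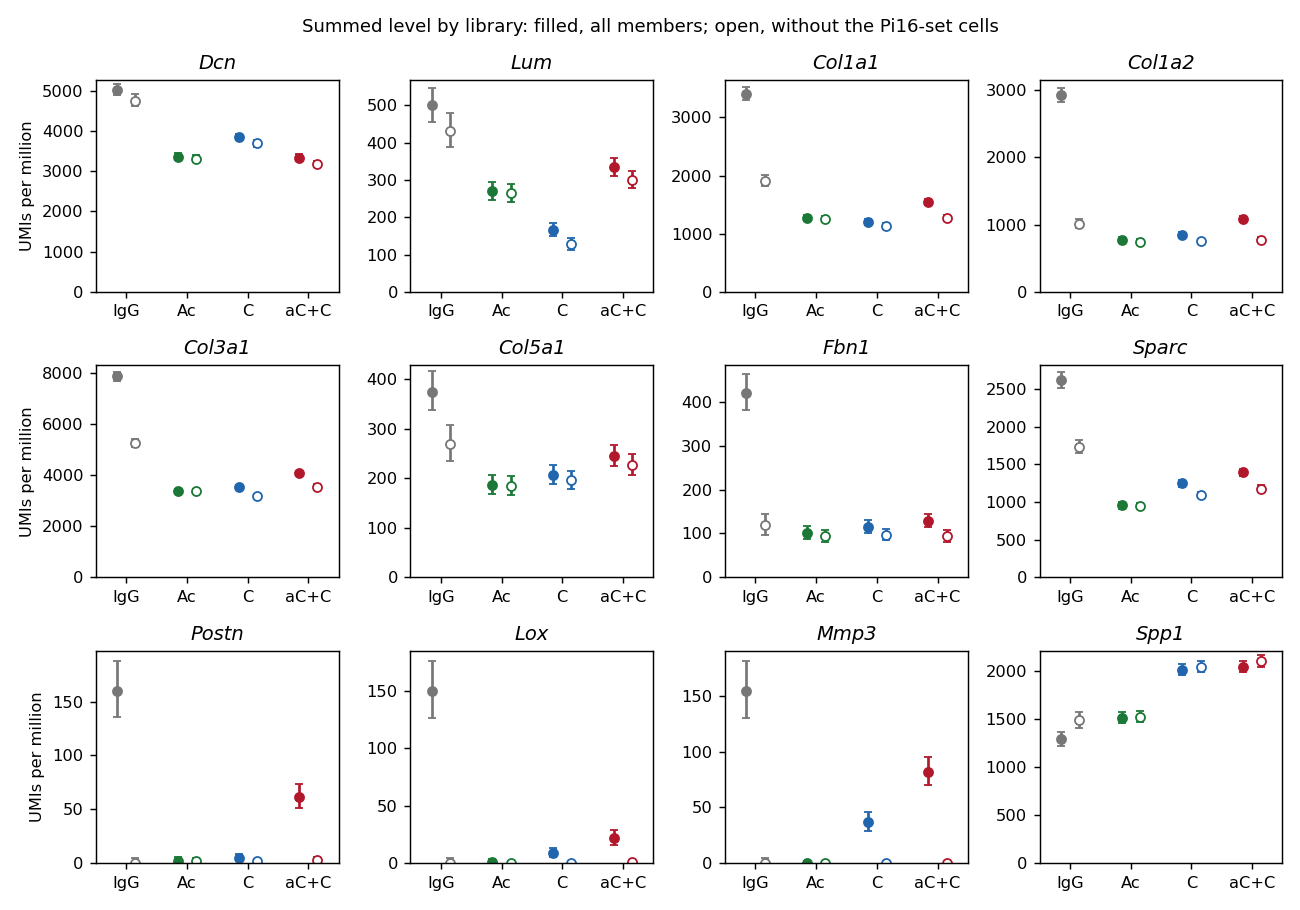
Levels of 12 matrix and secreted genes in fibroblast-like cells of each library, in CPM, with all cells (filled) and without the Pi16-set cells (open). Bars are exact 95% Poisson intervals for counting error. Postn, Lox and Mmp3 leave the IgG library with the 12 cells, while Lum and Col3a1 keep a higher level there.

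Among the small leucine-rich proteoglycans, lumican set the libraries apart without the 12 cells as well. Without the 12, 1 of 5 measured genes of this list was at least 2 times lower than IgG in Ac and 2 in C. Lum, which spaces collagen fibrils, was at 501, 270, 166 and 335 CPM in IgG, Ac, C and aC+C, and without the 12 at 433, 265, 128 and 300. It was low in C in both versions. With all cells, Ogn (osteoglycin) was at 530, 239, 223 and 256 CPM, and Aspn (asporin) at 305, 158, 246 and 202. Ac was thus the lowest for Aspn and C for Ogn. Bgn (biglycan) varied little, from 1310 CPM in Ac to 1631 in IgG.

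For several microfibril and matricellular genes, the higher level of IgG was found mostly in the Pi16-set cells. The median ratios to IgG of the elastic fibre and microfibril list were 0.50, 0.60 and 0.58 in Ac, C and aC+C, and 0.77, 0.81 and 0.78 without the 12. Those of the matricellular list were 0.46, 0.61 and 0.66, and 0.86, 0.97 and 0.97 without them. Fbn1 was at 421, 102, 116 and 128 CPM in IgG, Ac, C and aC+C, and at 119, 93.2, 97.1 and 94.5 without them. Postn was at 160, 2.14, 4.60 and 61.4 CPM, Lox at 150, 0.535, 8.28 and 21.7, and Mmp3, a stromal protease, at 155, 0, 36.8 and 82.2. In the IgG library no UMI of Postn or Mmp3 was left without the 12 cells, and 87.6% of the Postn UMIs of IgG came from 1 cell. Fbln5, a fibulin that organizes elastic fibres, differed from these genes, with ratios of 0.46, 0.48 and 0.48 and, without the 12, of 0.44, 0.48 and 0.43.

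Comparison of Ac with IgG showed fewer adventitial and matrix transcripts and more cell division transcripts. The 3 comparisons with IgG share that 1 library of 33 cells, so what is low or high in it appears in all of them. A gene was measured in such a comparison when both libraries together had 100 UMIs of it or more. Among 3885 such genes, the level in Ac was 2 or more times that of IgG for 34 (0.875%), and IgG was 2 or more times Ac for 91 (2.34%). Without the Pi16-set cells, 33 of 3704 (0.891%) were higher and 13 (0.351%) lower. Of the 8 measured genes of the adventitial list, 7 were at least 2 times lower, with a median ratio of 0.29 against 1.01 for all genes, and the median was 0.93 without the 12 cells. For the 6 measured fibrillar collagens the median was 0.40, with 5 at least 2 times lower, and 0.68 without the 12. Col1a1 had a ratio of 0.371 (0.352 to 0.392), and 0.651 (0.610 to 0.694) without the 12, beside 0.819 in the Hmga2 Tm4sf1 cells of the same libraries. The lowest ratios among named genes belonged to Saa3, an acute phase protein at 0 UMIs in Ac and 456 CPM in IgG, Mmp3 and Ptx3, also at 0 in Ac, and Lox, Postn, Cpxm1, Igfbp5 and Rarres2, all of which were at under 5 CPM in the Dcn-positive Spp1 cells.

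Cell division genes were higher in Ac. Of 10 measured genes of the G2 and M phase list, 8 had 2 or more times the level of IgG, and the median ratio was 3.53. Top2a, the topoisomerase that untangles chromosomes before division, was at 18.8 CPM in IgG and 164 in Ac, a ratio of 8.71 (5.42 to 14.9), beside 1.20 in Hmga2 Tm4sf1 cells. Mki67 was at 6.28 and 53.5 CPM and Ube2c at 9.42 and 86.7. Few cells carried this, as 35.2% of the Top2a UMIs of Ac, 55% of those of Mki67 and 57% of those of Ube2c came from 1 cell each. Thinned to 5000 UMIs per cell, Top2a had a UMI in 3 of 33 cells of IgG (9.09%, interval 1.92 to 24.3) and 10 of 58 of Ac (17.2%, 8.59 to 29.4), a difference within the intervals.

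The genes with the highest ratios in Ac rested on single cells. C1qb (2.09 CPM in IgG, 76.0 in Ac), C1qa, Lyz2 (9.42 and 163) and Apoe (36.6 and 518), which are macrophage transcripts, had 88% to 93% of their UMIs of Ac in 1 cell. All UMIs of Ifnb1, the gene of interferon beta, in Ac came from 1 cell, at 64.7 CPM over the library. Ccl2, the chemokine that attracts monocytes, was spread over more cells. It was at 2094 CPM in IgG and 3443 in Ac, with a median cell at 817 and 1412 CPM and 25.4% of its UMIs of Ac in 1 cell, a ratio of 1.64 (1.56 to 1.73) beside 0.939 in Hmga2 Tm4sf1 cells.

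In C against IgG, 39 of 4239 genes (0.92%) were 2 or more times higher and 113 (2.67%) lower by as much, and without the Pi16-set cells 39 of 4034 (0.967%) and 37 (0.917%). Genes of antigen presentation by myeloid cells led the higher side. Cd74, the invariant chain of MHC class II, was at 13.6 CPM in IgG and 550 in C, Ctss at 1.05 and 77.3, and H2-Aa, H2-Eb1 and H2-Ab1 had ratios of 20.2, 16.3 and 14.6. Without the cells with myeloid UMIs, 4 of them in C, the ratio of Cd74 was 1.87, that of H2-Eb1 1.17 and that of H2-Ab1 0.935, while Ctss, with 1 UMI in IgG, remained at 11.7. Ccl17 (0 UMIs in IgG, 54.8 CPM in C) came from 1 cell. With those cells left out, 24 genes in place of 39 were at least 2 times higher in C.

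Lum, Cyr61 and several type I interferon response genes were lower in C. The type I interferon list was lower than in IgG in the other libraries too, with median ratios of 0.78 in Ac and 0.77 in aC+C. Lum had a ratio of 0.332 (0.289 to 0.381), and of 0.294 (0.251 to 0.346) without the 12 cells, beside 1.25 in Hmga2 Tm4sf1 cells. Cyr61, a matricellular protein induced by mechanical and growth signals, was at 536 CPM in IgG and 168 in C, a ratio of 0.312 (0.272 to 0.358) beside 0.515 in Hmga2 Tm4sf1 cells. The interferon-induced antiviral genes Rsad2 and Isg15 were at 202 and 486 CPM in IgG and at 75 and 223 in C, ratios of 0.371 (0.299 to 0.460) and 0.459 (0.404 to 0.523), beside 0.707 and 0.681 in Hmga2 Tm4sf1 cells. Of 23 measured genes of the type I interferon list 4 were at least 2 times lower (Isg15, Rsad2, Ifi27l2a, Ifit3b), none was 2 times higher, and the median was 0.67 against 1.02 for all genes. Of 16 measured interferon gamma genes 3 were lower by as much (Cxcl9, Cxcl10, Socs1), and that list's median was 1.00. The ratio of Cxcl9 turned direction without the cell with the most of its UMIs. The median cell had 70.9 CPM of Cxcl10 in IgG and 67.5 in C, and the highest cell of IgG had 17978. F2rl1, a protease-activated receptor, was at 98.4 and 24.4 CPM. The medians of the adventitial, fibrillar collagen and fibroblast identity lists were 0.36, 0.45 and 0.51, and without the 12 cells 0.89, 0.74 and 0.90.

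**Figure D3:**
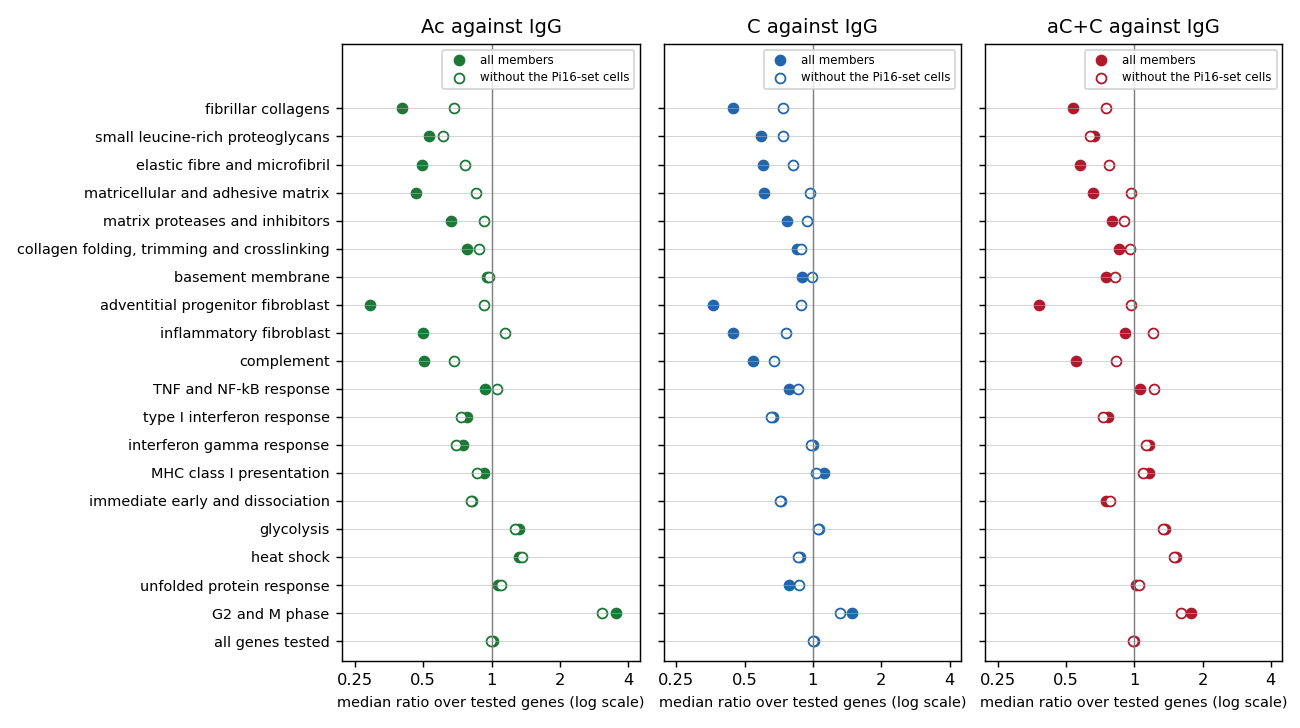
Median ratio to IgG of the measured genes of 19 lists and of all genes tested, in 3 panels for Ac, C and aC+C, on a logarithmic axis, with all fibroblast-like cells (filled) and without the Pi16-set cells (open). A ratio of 1 means the same level as in IgG. The adventitial list moves from 0.29, 0.36 and 0.38 to 0.93, 0.89 and 0.97 when the 12 cells are left out, while the G2 and M phase list stays above 1.

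In aC+C against IgG, 42 of 4140 genes (1.01%) were 2 or more times higher and 83 (2%) lower by as much, and without the Pi16-set cells 43 of 3903 (1.1%) and 24 (0.615%). The list medians were 0.38 for the adventitial genes, 0.54 for fibrillar collagens and 0.67 for fibroblast identity, and 0.97, 0.75 and 0.89 without the 12 cells. Of 18 measured interferon gamma genes 1 was at least 2 times higher, with a list median of 1.17, and of 1.13 without the 12 cells. Gbp2, an interferon gamma induced GTPase, was at 247 CPM in IgG and 598 in aC+C, a ratio of 2.42 (2.11 to 2.79). The ratio was as large outside the fibroblast-like cells, of 2.66 in Hmga2 Tm4sf1 cells, 2.79 in leukocytes and 3.60 in free RNA. Ubd, a ubiquitin-like modifier induced by interferon gamma and TNF, was at 29.3 and 92.1 CPM, a ratio of 3.14 (2.11 to 4.85) beside 3.30 and 9.95 in those cells.

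Other genes were higher in aC+C and stood nearer to 1 in Hmga2 Tm4sf1 cells. Areg, an EGF receptor ligand, was at 8.38 CPM in IgG and 60.4 in aC+C, a ratio of 7.22 (3.55 to 17.1) beside 1.5. Klra4, a lectin-like receptor gene best known from NK cells, was at 10.5, 12.8, 22.1 and 51.5 CPM in IgG, Ac, C and aC+C, a ratio of 4.92 (2.57 to 10.5) beside 1.88. Cryab, a small heat shock protein, was at 34.6, 95.8, 45.1 and 126 CPM, a ratio of 3.64 (2.53 to 5.39), here beside 3.16. The replication-linked histone gene Hist1h2ap was at 4.19 and 73.7 CPM, with 39.7% of its UMIs of aC+C in 1 cell. Hspa1b and Igfbp3 had 84.2% and 100% of theirs in 1 cell. The linker histone gene Hist1h1c was lower, at 308, 182, 124 and 68.5 CPM, a ratio of 0.222 (0.181 to 0.272) beside 0.427 in Hmga2 Tm4sf1 cells and 1.04 in leukocytes. Ccl2 was at 3597 CPM and its median cell at 2539, the highest of the 4 libraries, with a ratio of 1.72 (1.64 to 1.81) beside 1.43.

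Some genes were on 1 side in all 3 libraries relative to IgG. S100a4, a calcium-binding protein, was at 256, 511, 622 and 584 CPM in IgG, Ac, C and aC+C and at 0.849, 0.537 and 0.616 times IgG in the Hmga2 Tm4sf1 cells of Ac, C and aC+C. Vim was at 3075, 4107, 3983 and 4353 CPM. Spp1 was at 1292, 1512, 2012 and 2043 CPM, and of its ratios 1.17, 1.56 and 1.58 the values without the 12 cells were 1.02, 1.37 and 1.41, beside 0.996 to 1.01 in Hmga2 Tm4sf1 cells. The immediate early genes Fos (3646, 3299, 2909 and 2686 CPM) and Egr1 (2379, 1944, 1760 and 1689 CPM), which are also induced by dissociation of tissue, were highest in IgG.

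Against Ac, the aC+C library had higher interferon gamma response genes. Among 4984 measured genes, 39 (0.783%) had 2 or more times the level of Ac and 21 (0.421%) were lower by as much, and without the Pi16-set cells 21 (0.428%) and 20 (0.408%) of 4907. Of 18 measured genes of the interferon gamma list, 8 were at least 2 times higher (Gbp2, Gbp4, Cxcl9, Irgm1, Ifi47, Igtp, Iigp1, Cd274) and none was 2 times lower, with a median of 1.89 against 1.00 for all genes and 1.93 without the Pi16-set cells. Relative to IgG, the list median was 0.75 in Ac and 1.17 in aC+C, so Ac lay below IgG. Gbp2 was at 234 CPM in Ac and 598 in aC+C, a ratio of 2.55 (2.29 to 2.85), and Igtp, a GTPase of the same response, at 102 and 286, a ratio of 2.80 (2.38 to 3.31). Their ratios were 2.78 and 2.98 in Hmga2 Tm4sf1 cells and 2.19 and 1.36 in leukocytes. Cd274, which encodes PD-L1, was at 39.8, 15.5, 13.8 and 36.4 CPM in IgG, Ac, C and aC+C, so aC+C was close to IgG and above Ac and C. Of the Cd274 UMIs of IgG, 50% came from 1 cell.

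Against C, 49 of 5259 genes (0.932%) were 2 or more times higher in aC+C and 25 (0.475%) lower by as much, and without the Pi16-set cells 42 (0.816%) and 25 (0.486%) of 5147. The lower genes were led by the myeloid transcripts of C, with Cd74 at 550 CPM in C and 31.2 in aC+C. The higher ones included Areg (2.76 and 60.4 CPM), the TWEAK receptor gene Tnfrsf12a (17.5 and 71.3), Rgcc (10.6 and 49.1) and Rsad2 (75 and 221, with 47.8% of the UMIs of aC+C in 1 cell). Of 12 measured hypoxia response genes, Ero1l and Higd1a were at least 2 times higher, and the list median was 1.79 against 0.99 for all genes. Summed over this list, IgG, Ac, C and aC+C had 896, 1025, 566 and 921 CPM, so C was the lowest library and aC+C was close to IgG.

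Set against the Hmga2 Tm4sf1 cells within each library, fibroblast-like cells had more collagen and proteoglycan RNA and less RNA of cell division. Among 7712 measured genes, 123 (1.59%) were 2 or more times higher in each of the 4 libraries and 349 (4.53%) lower by as much, and without the Pi16-set cells 103 of 7651 (1.35%) and 352 (4.6%). Since Dcn, collagen VI, Ptprc and Hmga2 chose the cells, these counts are descriptions and carry no test, and median UMIs differed, at 29557 against 61928. Lum was 28.0, 19.7, 7.42 and 23.5 times as high in IgG, Ac, C and aC+C, and 24.2, 19.4, 5.69 and 21.1 times without the 12 cells. Aspn was at 305 against 29.8 CPM in IgG, 158 against 25.5 in Ac, 246 against 42.0 in C and 202 against 21.9 in aC+C. Col3a1 was 6.61, 4.71, 4.14 and 7.34 times as high, and Serpinf1, which encodes the antiangiogenic protein PEDF, 12.5, 5.94, 6.14 and 15.4 times. Pdgfra, the receptor for platelet-derived growth factor, was 3.63, 4.12, 4.27 and 5.21 times as high. Complement genes were different in kind: C3 was 6.93 to 77.4 times as high with all cells but 1.10 to 8.85 times without the 12, and C4b 4.2 to 33.6 times but 0.317 to 1.47 times.

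**Figure D4:**
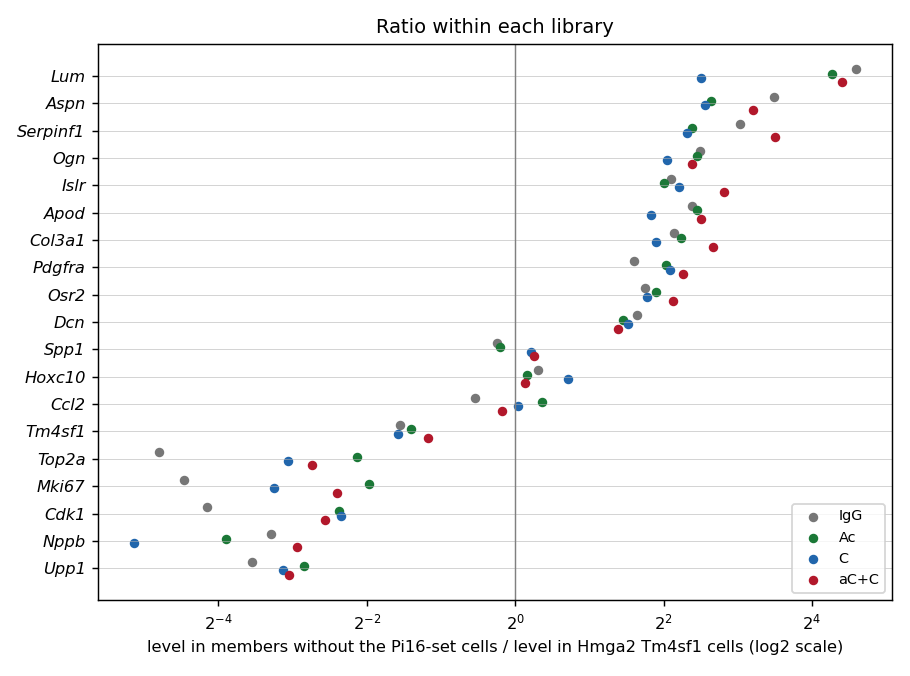
Ratio of the level in fibroblast-like cells without the Pi16-set cells to that in Hmga2 Tm4sf1 cells of the same library, for 19 genes, on a log2 axis, 1 point per library. Lum, Aspn and Col3a1 lie above 1 in all 4 libraries (least ratios 5.69, 5.90 and 3.74), Spp1 lies near 1, and Top2a lies below it.

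On the lower side, 24 of 25 measured G2 and M phase genes and 18 of 23 S phase genes were at least 2 times lower in all 4 libraries. Top2a was at 18.8 against 601 CPM in IgG, 164 against 725 in Ac, 58.4 against 497 in C and 91.1 against 620 in aC+C. Cdk1, the kinase that drives entry into mitosis, was 0.0490, 0.191, 0.195 and 0.167 times the level of Hmga2 Tm4sf1 cells. Outside the cell cycle, Upp1, an enzyme of uridine breakdown, was at 0.0745, 0.139, 0.112 and 0.117 times, and Esm1, a secreted proteoglycan, at 0.0105, 0.190, 0.106 and 0.184 times. Leukocyte RNA follows from the choice of cells, since the rule capped Ptprc in fibroblast-like cells and not in Hmga2 Tm4sf1 cells, 240 of which had more than 1 UMI of it. Of the measured leukocyte markers 6 of 7, and of the T and NK cell markers 4 of 4, were lower. On the higher side were 10 of 17 measured fibroblast identity genes (9 without the 12), 5 of 6 fibrillar collagens (4 without) and 4 of 5 small leucine-rich proteoglycans. No measured gene of the type I interferon, heat shock or glycolysis lists passed 2 times in 1 direction in all 4 libraries. Of 20 measured interferon gamma genes 1 did, Irf8, a transcription factor of myeloid and lymphoid cells, which was lower (0.308, 0.411, 0.281 and 0.396 times). Of 16 measured MHC class I genes none did with all cells and 1, H2-Q7, was lower without the 12.

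At equal depth, the share of cells with a UMI of Lum followed the order of its levels over the libraries. After thinning every cell to 5000 UMIs, which left out 2 cells of C and 2 of aC+C, Lum was seen in 18 of 33 cells of IgG (54.5%, interval 36.4 to 71.9), 19 of 58 of Ac (32.8%, 21.0 to 46.3), 24 of 75 of C (32%, 21.7 to 43.8) and 25 of 61 of aC+C (41.0%, 28.6 to 54.3). Without thinning the shares were 72.7%, 50%, 48.1% and 44.4%. IgG was the highest, but the intervals of the 4 libraries overlapped. In thinned Hmga2 Tm4sf1 cells the share was 6.40%, 6.11%, 6.56% and 4.2%, and in leukocytes, which should lack lumican, 0.117% to 0.458%. Pdgfra was seen in 60.6%, 46.6%, 46.7% and 42.6% of thinned fibroblast-like cells, against 20.8%, 20.6%, 19.7% and 13.6% of Hmga2 Tm4sf1 cells and 0.156% to 1.17% of leukocytes. Top2a was seen in 9.09%, 17.2%, 10.7% and 16.4% of thinned fibroblast-like cells and in 52%, 54.4%, 50.6% and 61.2% of Hmga2 Tm4sf1 cells.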

How the data were processed

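Poly(A) RNA of 4 mouse libraries was captured with 10x single cell 3' reagents of version 2, per the labels' protocols. The deposited matrices hold raw counts of UMIs per gene and barcode, which the authors made with Cell Ranger 2.1.1 on build mm10, per the submitters' processing notes. The matrix headers name software version 3.0.2 and list 6794880 barcodes and 27998 genes. The annotation release is not given in the sources used here.

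Levels are summed UMIs of the cells per 1000000, and ratios use genes for which both libraries together had 100 UMIs or more. A count of 0 was replaced by a floor of 3 counts over the cells of the library in a ratio. Where symbols were listed more than once, the first entry was used. With 1 library per group no test was made. Doublets were kept. As an alternative, the barcodes with the highest Scrublet scores (scanpy 1.11.5) were left out, 0.8% per 1000 kept barcodes. The cells, the 51 gene lists and the comparisons were chosen with earlier results of these data known, and the Pi16-set cells, the cells with myeloid UMIs and the cells with the most UMIs of a gene after the values were seen. Of 839 listed symbols, 827 were found as listed, 7 under another symbol, and 5 are not used here.

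Genes were named as markers, as the 10 highest and 10 lowest ratios to IgG (mt-, Rpl, Rps, Gm, Rik and pseudogene symbols left out), as the 3 most abundant members of a list or those at least 2 times apart, as the 15 most extreme against Hmga2 Tm4sf1 cells, or as the 15 most abundant. Others, among them the genes that separate the Pi16-set cells, were named after their values were seen. The scripts were tested on simulated data with Python 3.11.15. No sequences are printed.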

Additional observations from a re-analysis of the deposited data

Results flagged for a closer look

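The genes Mgst1, C3 and Ccl11 went in opposite directions in fibroblast-like cells and in Hmga2 Tm4sf1 cells of the same libraries, and these differences were not tested, since each group has 1 library. In C against IgG, Mgst1, a membrane glutathione transferase, had a ratio of 0.133 in fibroblast-like cells and 7.30 in Hmga2 Tm4sf1 cells. In aC+C against IgG its ratios were 0.210 and 2.86. Nearly all of its UMIs lay in the Pi16-set cells (672 CPM, against 0.580 in the other 219 cells). Complement C3 had ratios of 0.210 and 2.17 in C, and of 0.251 and 2.49 in aC+C. Without the Pi16-set cells its ratios in fibroblast-like cells were 0.404 and 0.414. The chemokine gene Ccl11 had ratios of 0.370 and 5.70 in C against IgG, and without the Pi16-set cells its ratio in fibroblast-like cells was 2.17, the same direction as in Hmga2 Tm4sf1 cells.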

How the results depend on the processing

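No paired analysis was possible because each group has 1 library and the labels give no shared replicate numbers. Leaving out a replicate could not be done for the same reason. The share of fibroblast-like cells moved by less than its interval under every alternative run. Of the values of single genes, 1686 stayed within their interval for counting error, 318 moved beyond it and 22 turned direction. A turn was counted only for ratios that were at least 2 times apart to begin with. The alternatives without the Pi16-set cells, without the cells with myeloid UMIs and without the top cell of each gene were chosen after seeing the data.

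The level of Col3a1 in IgG, Ac, C and aC+C was 8325, 2732, 3203 and 3622 CPM with at most 5% mt- UMIs and 8099, 3729, 3620 and 4890 with cells chosen by level (at least 500 CPM). It was 8101 in IgG and 4179 in aC+C with at least 10 UMIs of Dcn and of collagen VI, and 5264, 3179 and 3553 in IgG, C and aC+C without the Pi16-set cells. The G2 and M phase median was 2.83 in aC+C with 5% mt-, 7.34 in Ac with 10 UMIs, 6.00 in Ac by level, 6.05 in Ac and 3.65 in aC+C with at least 30 UMIs per gene, and 2.43 in C and 2.93 in aC+C without the top cell. The adventitial median was 0.103 in Ac and 0.231 in aC+C with 30 UMIs, and 0.930, 0.887 and 0.966 without the Pi16-set cells, where fibroblast identity was 0.830 in Ac and 0.901 in C and fibrillar collagens 0.684 and 0.736.

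With at least 30 UMIs per gene, which tests more genes, 236 and 290 genes had 2 or more times a higher and a lower level in Ac against IgG, 242 and 308 in C, 226 and 296 in aC+C, 126 and 130 in aC+C against Ac, and 146 and 150 in aC+C against C. With 400 UMIs these were 4 and 22, 10 and 33, 9 and 23, 10 and 4, and 17 and 5. With cells chosen by level, 27 genes were higher in aC+C against IgG and 34 lower in aC+C against Ac. Without the Pi16-set cells, 13, 37 and 24 genes were lower in Ac, C and aC+C against IgG, and 21 higher in aC+C against Ac. Without cells with myeloid UMIs, 24 were higher in C against IgG, 13 lower in aC+C against Ac and 7 lower in aC+C against C. Without the top cell, 59 were higher in C against IgG. Thinned to 1000 UMIs, Lum had a UMI in 27.3%, 15.5%, 15.6% and 25.4% of cells.

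Ratios to IgG that turned were C1qa in aC+C with 5% mt- (0.854), Hspa1b in aC+C by level (0.650), C1qa and H2-Eb1 in Ac with the highest Scrublet scores left out (0.846 and 0.416), and Saa3 in aC+C as a mean over cells (1.01). Without the Pi16-set cells they were Ccl11 in Ac and C (3.33 and 2.17) and Htra3 in C (2.13). Without cells with myeloid UMIs they were C1qa and H2-Eb1 in Ac (0.846 and 0.416), C1qa, Ctsc and H2-Ab1 in C (0.643, 0.935 and 0.935) and C1qa in aC+C (0.862). Without the top cell they were C1qa and H2-Eb1 in Ac (0.949 and 0.511), Cxcl9 and Igfbp3 in C (1.3 and 1.32), and C1qa, Hspa1b, Postn and Saa3 in aC+C (0.966, 0.738, 1.61 and 2.95). Apart from those made by leaving cells out, the cause of these moves was not tested. The 33 cells of IgG, with 955108 UMIs, set the precision of each comparison with it.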
